A study of Mus musculus with 10 samples.

Results

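Immediate early gene (IEG) microglia are 1 of the 6 states into which the authors' annotation divides the microglia of the mouse brain. They were taken here as all cells that the annotation of the microglia names IEG, which gave 2094 of 40547 microglia and of 45472 CD45+ cells in 10 libraries. Each library was prepared with 10x Genomics 3' chemistry (version 3) from CD45+ cells (CD45 marks all leukocytes) sorted from the pooled brains of 3 mice (2 males and 1 female) of 1 genotype and age. WT mice and Nlrp3KO mice, which lack *Nlrp3* in the whole body from conception, were profiled at 3, 6 and 9 months. *APP/PS1* mice, which overexpress amyloid precursor protein with the Swedish mutation and a mutant human presenilin 1 in neurons of the brain and spinal cord, and Nlrp3KO *APP/PS1* mice were profiled at 3 and 9 months. All mice were littermates on a C57BL/6 background, and WT and Nlrp3KO mice without the transgene are called non-diseased. Brains of all groups were dissociated in the cold with actinomycin D, an inhibitor of transcription that limits gene induction during tissue handling. Each of 3 batches holds the libraries of 1 age, so that age and batch cannot be told apart, and with pooled mice a p-value measures the spread between libraries. In the fits of single genes this spread is estimated partly from the other genes.

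Immediate early genes are transcribed within minutes of a stimulus without need of new protein synthesis. Many of them encode transcription factors, such as the AP-1 subunits Fos, Jun and Atf3 and the zinc finger factor Egr1, and others encode feedback inhibitors and chemokines. In microglia these genes respond to injury and to pathogen or amyloid sensing, and also to the enzymatic dissociation of the tissue.

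IEG microglia numbered 79 (WT, 9 months) to 450 cells (Nlrp3KO *APP/PS1*, 3 months) per library and held 489000 to 2408256 UMIs (unique molecular identifiers, which tag single captured RNA molecules). The median IEG microglia held 5408 UMIs, against 4366 in homeostatic microglia (HM, 31953 cells), and 13.04% of IEG microglia against 6.35% of HM scored over 0.5 for doublets. The other states were above HM too. This share was 14.4% in disease-associated, 21.3% in proliferating, 10.3% in interferon-response and 10.1% in transitioning microglia. Their median UMIs were 5726, 5796, 4638 and 4970 in the same order. Mitochondrial UMIs made up a median of 2.80% to 4.77% per IEG library and 2.25% to 3.46% in HM. Of the cell barcodes, 246 occurred in more than 1 library, among them those of 31 IEG microglia. *Nlrp3* had 16 to 57 UMIs in the IEG microglia of each of the 5 libraries with an intact gene (Nlrp3WT) and 0 in each of the 5 Nlrp3KO libraries, where a count of 0 allows up to 3.

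The label was checked against *Atf3*, *Fos* and *Ccl4*. Levels are given as CPM, the UMIs of a gene scaled to an equal total for each sum of cells, and since the cells were clustered on these genes, the comparison of IEG with HM is a description without a test. *Ccl4*, a chemokine that recruits monocytes and lymphocytes, had 1646, 967, 2372 and 2245 CPM in IEG of WT, Nlrp3KO, *APP/PS1* and Nlrp3KO *APP/PS1* mice at 3 months, 280 and 668 CPM in WT and Nlrp3KO mice at 6 months, and 2534, 495, 1803 and 719.6 CPM in the 4 genotypes, in the first order, at 9 months. In HM it lay between 3.75 and 12.04 CPM, so the lowest IEG library stood far above the highest HM library. *Atf3*, a stress-induced transcription factor of the AP-1 group, had 196, 146, 241 and 150 CPM at 3 months, 57.1 and 61.2 CPM at 6 months and 151, 95.2, 150 and 69.6 CPM at 9 months in IEG, in the same order, and 11.4 to 20.1 CPM in HM. The IEG and HM libraries did not overlap for *Atf3* either, and IEG was the highest of the 6 states in 10 of 10 libraries for both genes. *Fos*, the founding member of the AP-1 family, had 10.5, 20.2, 56.2 and 5.81 CPM at 3 months, 114 and 44.3 CPM at 6 months and 24.5, 62.9, 22.9 and 35.8 CPM at 9 months in IEG. HM had 3.08 to 48.4 CPM of *Fos*, the ranges overlapped, and IEG exceeded HM of the same library in 9 of 10 libraries. The median level of *Fos* was 30.2 CPM in IEG, 34.0 CPM in transitioning microglia (TM) and 31.5 CPM in interferon-response microglia (IRM), and IEG was the highest of the 6 states in 6 of 10 libraries. *Fos* was higher still in the other CD45+ cells (34.1 to 145 CPM, median 125), so that of the 3 markers *Atf3* and *Ccl4* set IEG apart from the other states and *Fos* did not.

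**Figure D1:**
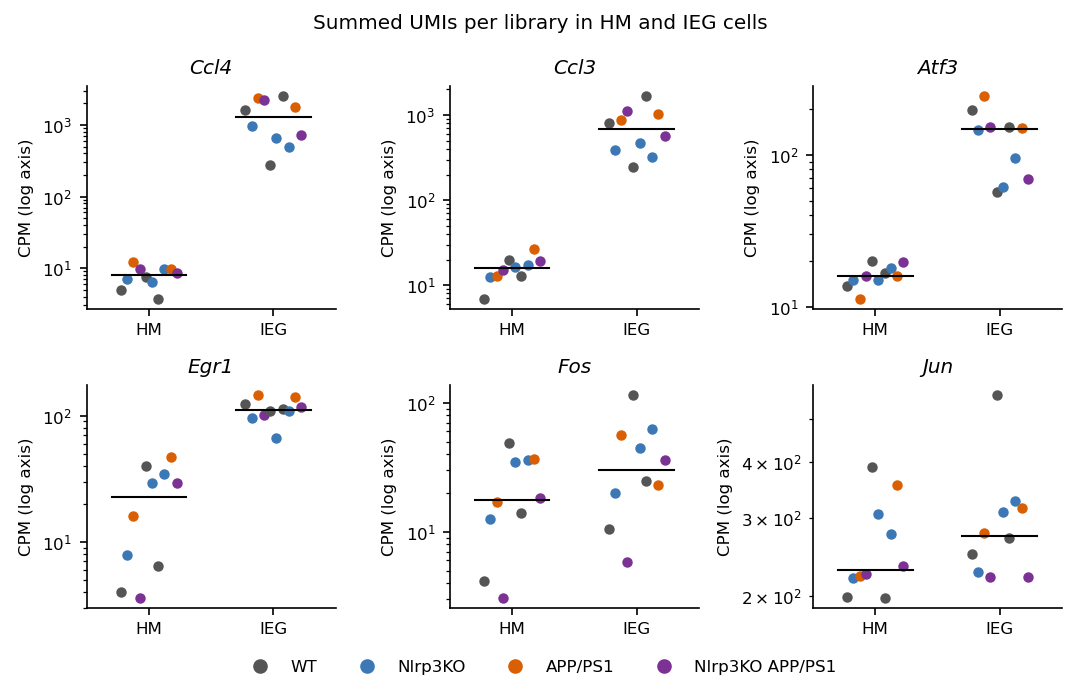
Level of 6 genes (CPM, log axis) in HM and IEG microglia, with 1 point per library and state coloured by genotype and a line at the median of the 10 libraries. *Ccl4* and *Atf3* do not overlap between the states, whereas *Fos* does.

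The promoters of 3 of these genes are shown to compare the regulatory sequence of an AP-1 gene that marked IEG strongly (*Atf3*), one that marked it weakly (*Fos*) and a chemokine gene (*Ccl3*). They are the 250 bases before the transcription start in RefSeq (GRCm38.p6), in the direction of the gene, and capitals mark matches to TGACG, the core of the cyclic AMP response element, on either strand. *Atf3* (chr1:191183334-191183583, minus strand) had 1 match, at -7 to -3 from the start. *Fos* (chr12:85473640-85473889, plus strand) had 2 matches, at -129 to -125 and -66 to -62. *Ccl3* (chr11:83649379-83649628, minus strand) had none. Of 32851 promoters of this length, 17.8% held TGACG, and none of the 3 held the AP-1 site TGANTCA, searched on both strands and found in 6.75% of promoters. A match in these letters is no evidence of binding.
Atf3: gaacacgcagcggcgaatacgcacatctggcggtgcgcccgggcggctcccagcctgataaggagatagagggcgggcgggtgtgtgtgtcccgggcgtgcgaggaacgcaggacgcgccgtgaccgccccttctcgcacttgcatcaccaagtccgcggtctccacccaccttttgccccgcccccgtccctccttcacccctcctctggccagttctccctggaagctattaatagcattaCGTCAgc
Fos: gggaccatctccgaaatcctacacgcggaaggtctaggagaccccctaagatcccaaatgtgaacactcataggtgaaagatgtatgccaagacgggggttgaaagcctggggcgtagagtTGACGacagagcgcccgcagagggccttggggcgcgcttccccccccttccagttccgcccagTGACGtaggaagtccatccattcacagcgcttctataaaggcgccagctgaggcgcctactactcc
Ccl3: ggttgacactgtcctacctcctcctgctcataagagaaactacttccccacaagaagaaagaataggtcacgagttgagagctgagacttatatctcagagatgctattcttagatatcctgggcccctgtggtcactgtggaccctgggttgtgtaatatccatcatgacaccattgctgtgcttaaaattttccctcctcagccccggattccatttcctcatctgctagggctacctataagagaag

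Across the transcriptome, 11025 genes had at least 200 UMIs over IEG and HM. Of these, 728 (6.6%) were higher in IEG than in HM of the same library in all 10 libraries, 1304 (11.8%) were lower in all 10, and 60 (0.544%) were more than 2-fold higher in all 10, with a median log2 ratio over all genes of -0.10. Among genes higher in all 10 libraries, the largest median log2 ratios of IEG to HM were those of *Ccl4* (7.24, range 5.15 to 9.23), *Lgals3* (6.74), *Gadd45b* (5.70), *Gas2l3* (5.48), *Spp1* (5.32), *Nes* (5.12), *Ccl3* (5.10), *Ccl2* (5.03), *Gdf15* (4.56), *Il1b* (4.35), *Lpl* (4.23), *Itgax* (4.03), *Fam20c* (4.00), *Gem* (3.96) and *Cxcl10* (3.90). They include chemokines, the stress-induced growth arrest gene *Gadd45b* and the stress cytokine gene *Gdf15*, and also *Lgals3*, *Spp1*, *Lpl* and *Itgax*, which belong to the program of disease-associated microglia (DAM). The limit of 200 UMIs is over both states, so genes nearly absent from HM could pass it mainly through IEG. The ranking favours such genes, for example *Gdf15* (200 UMIs, HM median 0.125 CPM) and *Gadd45b* (505 UMIs, 0.385 CPM). At the other end stood *Ccdc162* (-2.35), *Casp12* (-2.00), *Siglecg* (-1.96), an inhibitory sialic acid receptor, *Gpr165* (-1.81) and *Gm7694* (-1.41), the last of the 15 lowest.

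Chemokine genes were higher in IEG than in HM with few exceptions. Of the 9 with at least 200 UMIs, 8 were higher in IEG in all 10 libraries, 6 were more than 2-fold higher in all 10, and the median log2 ratio was 1.90. *Ccl3*, a chemokine that attracts monocytes and other leukocytes, had 243 (WT, 6 months) to 1671 CPM (WT, 9 months) in IEG and 6.97 to 26.5 CPM in HM. *Ccl2*, the main attractant of Ccr2+ monocytes, had 236, 136, 188 and 209 CPM at 3 months, 17.4 and 65.6 CPM at 6 months and 135, 56.1, 38.2 and 168 CPM at 9 months in IEG, against 2.02 to 4.71 CPM in HM. For *Ccl2* and *Ccl4* the lowest IEG value was in WT mice at 6 months, the library in which the smallest part of the IEG microglia (16.99%) was also named IEG in the authors' annotation of all CD45+ cells, and both genes varied more between IEG libraries than between HM libraries. *Ccl12* (median log2 ratio 1.90), *Cxcl16* (1.70), *Ccl9* (1.29) and *Ccl6* (1.09) were higher in IEG in all 10 libraries and *Ccl5* (1.63) in 9. Several of the listed chemokine genes nevertheless had their highest median level in another state. *Ccl12* had 313 CPM in IEG and 1349 CPM in IRM, *Cxcl10* 10.7 and 292 CPM, *Ccl5* 11.6 and 81.8 CPM and *Ccl7* 7.23 and 9.12 CPM in the same states. *Ccl6* had 307 CPM in IEG and 849.9 CPM in DAM.

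Of 9 cytokine genes, 5 were higher in IEG in all 10 libraries and 1 was lower, with a median log2 ratio of 1.04. *Il1b*, which encodes the pro-form of interleukin 1 beta that inflammasomes process, had 10.7 (Nlrp3KO, 3 months) to 112 CPM (*APP/PS1*, 3 months) in IEG and 1.12 to 3.58 CPM in HM. *Tnf*, a central inflammatory cytokine, had 20.3 to 52.6 CPM in IEG and 2.02 to 9.46 CPM in HM, and *Csf1*, a growth factor of microglia, had 24.8 to 207 CPM and 7.02 to 12.9 CPM. The ranges of IEG and HM did not overlap for these 3 genes. *Osm* (1.04) and *Il1a* (0.54) had smaller ratios, *Il18*, another inflammasome substrate, was lower in IEG in 10 of 10 libraries (-0.38), and *Il6* (-0.18) and *Tgfb1* (-0.11) had median ratios below 0. *Nlrp3* itself, at 0 in both states of the 5 Nlrp3KO libraries, had 28.1, 50.9, 49.6, 32.7 and 43.0 CPM in IEG of the 5 Nlrp3WT libraries (WT and *APP/PS1* at 3 months, WT at 6 months, WT and *APP/PS1* at 9 months) and 45.4, 55.3, 46.2, 36.2 and 60.7 CPM in HM. It was thus lower in IEG in 4 of these 5 libraries. *Pycard* had a median log2 ratio of -0.12, *Casp1* of -0.16 and *Gsdmd* of -0.36. Of the 8 inflammasome genes 1, *Il1b*, was higher and 3 were lower in all 10 libraries, a count that *Nlrp3* could not enter.

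Some of the immediate early genes were higher in IEG, beside 6.6% of all genes higher and 11.8% lower in all 10 libraries and a median ratio of all genes of -0.10. Of 10 AP-1 genes, 2 were higher in all libraries (*Atf3*, 3.16, and *Junb*, 0.43) and 1 was lower (*Batf3*, -0.40), and the median was 0.17. *Jun* had 221 to 563 CPM in IEG and 198 to 390 CPM in HM (0.15, higher in 7 of 10 libraries), *Fosb* was lower in 9 of 10 libraries (-0.42) and *Maff* was higher in 9 of 10 (2.40). Of 16 other immediate early genes, 6 were higher in all libraries, namely *Egr1* (2.55), *Egr2* (3.10), *Ier2* (1.63), *Ier3* (1.97), *Gem* (3.96) and *Cebpb* (0.44), whereas *Cebpd* (-0.96), *Rhob* (-0.39) and *Btg1* (-0.19) were lower in all. *Egr1* had 123, 95.4, 145 and 101 CPM at 3 months, 108 and 66.2 CPM at 6 months and 112, 109, 142 and 116 CPM at 9 months in IEG. This level was even across libraries, and the lowest IEG value was above the highest HM value of 47.4 CPM. *Egr3* had a median log2 ratio of 5.21 and was higher in 9 of 10 libraries. Of 25 genes listed as the dissociation response of microglia, 10 were higher and 3 lower in all libraries (median 0.26), and their summed level was 3919 to 6984 CPM in IEG and 2012 to 3498 CPM in HM. Of that sum *Ccl4* and *Ccl3*, both on the list, had medians of 1307 and 687 CPM in IEG and 8.07 and 15.7 CPM in HM. The part of tissue dissociation in these levels was not tested.

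Genes of the NF-kB pathway, which carries signals of Toll-like and cytokine receptors to the nucleus, were described next. Of 15 genes, 8 were higher in IEG in all 10 libraries and none was lower in all, with a median of 0.73. The higher ones were mainly targets, such as *Cd83* (2.50), a glycoprotein of activated myeloid cells, *Plaur* (2.93), the urokinase receptor, *Gadd45b*, *Bcl2a1d* (1.65) and *Ccrl2* (1.47), with the noncanonical subunit genes *Nfkb2* (0.85) and *Relb* (0.71). The canonical subunit genes *Nfkb1* (0.04) and *Rela* (-0.02) were close to HM, and *Rel* (-0.30) was higher in 1 of 10 libraries. *Cd83* had 332 (Nlrp3KO, 6 months) to 686 CPM (*APP/PS1*, 3 months) in IEG and 73.9 to 103 CPM in HM. Of 14 feedback inhibitors, 4 were higher and 3 lower in all libraries, with *Nfkbia* (0.78), *Nfkbid* (1.18), *Nfkbiz* (1.14) and the mRNA decay factor *Zfp36* (0.42) higher and *Zfp36l2* (-0.68) and *Pdcd4* (-0.59) among the lower ones.

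Stress genes differed by class. Of 14 heat shock and chaperone genes 6 were higher in IEG in all libraries and none lower, but none was more than 2-fold higher in all. *Hspa5*, the chaperone of the endoplasmic reticulum, had 1069.8 to 1685 CPM in IEG and 776 to 957 CPM in HM, and *Hsp90aa1* (0.69), *Hspd1* (0.75) and *Hsp90ab1* (0.63) were also higher in all libraries. *Hspa1a*, the heat-inducible Hsp70 gene, had a median of 12.5 CPM in IEG, 6.17 CPM in HM and 18.0 CPM in IRM, *Hspa1b* was higher in 5 of 10 libraries and *Dnajb1* had a median ratio of -0.28. Of 15 genes of the integrated and oxidative stress responses, 7 were higher in all libraries and 1, *Txnip* (-0.52), was lower. *Hmox1*, which degrades heme, had 39.7 to 121 CPM in IEG and 23.0 to 28.9 CPM in HM. The metallothionein genes *Mt2* (2.70) and *Mt1* (1.47), the cell cycle inhibitor gene *Cdkn1a* (1.55) and *Asns* (1.54), an Atf4 target, were also higher in all libraries, the last at low levels of 1.91 to 6.72 CPM. *Cdkn1a* had a median of 37.8 CPM in IEG and 219 CPM in proliferating microglia, and *Hsp90aa1* 385 and 502 CPM in the same order. By contrast, IEG was the highest of the 6 states for *Mt1* in 10 of 10 libraries.

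Of the DAM genes, the 24 with at least 200 UMIs were higher in IEG than in HM in 10 of 10 libraries, 8 of them more than 2-fold in each, with a median of 1.12. *Cst7*, a cystatin, had 109, 82.6, 99.1 and 115 CPM at 3 months, 54.6 and 73.1 CPM at 6 months and 282, 104, 383 and 516 CPM at 9 months in IEG, against 7.82 to 39.1 CPM in HM. *Apoe*, the main lipid carrier of the brain, had 911 to 2719 CPM in IEG and 236 to 529 CPM in HM, but a median of 4242 CPM in DAM. *Lpl*, a triglyceride lipase, had 62.0 to 681 CPM in IEG and 4.36 to 15.8 CPM in HM. Its median was 263 CPM in IEG and 68.0 CPM in DAM, whereas that of *Cst7* was 107 CPM in IEG and 173 CPM in DAM. By cells, *Lpl* did not set IEG apart from DAM, with a UMI in 27.4% of IEG microglia and 27.5% of DAM. The 10 libraries held 901 DAM cells, unevenly spread. The DAM share of microglia was higher in *APP/PS1* mice (log2 1.44) and at 9 months (log2 3.15). DAM medians over libraries, here and for other genes and lists, thus rest in part on sums of few cells. Summed over the DAM list, the median level was 48070 CPM in IEG (39868 to 57139) and 42841 CPM in DAM (36428 to 88177). The sum in HM had a median of 29370 CPM. Homeostatic genes moved the other way, with 15 of 18 lower in all libraries and none higher (median -0.34). This was not particular to IEG. Summed over the homeostatic list, the median was 100116 CPM in HM, 87618 CPM in IEG, 85618.5 CPM in IRM, 85535 CPM in DAM, 84062 CPM in proliferating microglia and 82469 CPM in TM. *P2ry12*, the ADP receptor of resting microglia, had 1245 to 2346 CPM in IEG and 2865 to 3877 CPM in HM, and *Slc2a5* (-0.99), *Sall1* (-0.61), *Tmem119* (-0.54) and *Cx3cr1* (-0.40) were lower as well. Of the 13 complement and receptor genes 6 were higher and 3 lower (*Fcgr2b*, *Fcgr3* and *P2rx7*) in all libraries, with a median of 0.10. The higher ones include the anaphylatoxin receptor genes *C5ar1* (1.59) and *C3ar1* (1.24) and *Hcar2* (2.41), the niacin receptor. Of 12 interferon genes 2 were higher in all libraries (median 0.81), and of 6 proliferation genes 1 was.

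Markers of border macrophages, monocytes and T and NK cells were far below their level in the other CD45+ cells. Summed over each list, border macrophage markers reached 3.72 to 19.9 CPM in IEG, 4.07 to 8.44 CPM in HM and 490 to 2739 CPM in the other CD45+ cells, and monocyte markers 1.40 to 7.95, 5.61 to 13.3 and 1046 to 2981 CPM in the same order. Markers of T and NK cells summed to at most 6.69 CPM in IEG and to 1152 to 5196 CPM in the other CD45+ cells, and those of neurons to 1.70 to 6.31 CPM in IEG. The neutrophil list was not lower in this way, with 202 to 321 CPM in IEG, 235 to 291 CPM in HM and 23.7 to 36533 CPM in the other CD45+ cells. Nearly all of it was *Csf3r*, the G-CSF receptor gene, at 200 to 287 CPM in IEG and 235 to 266 CPM in HM, while *S100a8* reached at most 14.9 CPM, *S100a9* at most 18.6 CPM and *Mmp9* 0 CPM in IEG. The B cell list summed to 164 to 269 CPM in IEG, 303 to 344 CPM in HM and 490 to 2507 CPM in the other CD45+ cells. Of it *Ighm*, the IgM heavy chain gene, made up 132 to 233 CPM and *Cd79b* a median of 31.1 CPM in IEG, whereas *Cd79a* and *Ms4a1* reached at most 1.40 and 0.994 CPM. The part of these markers in the results was not tested.

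IEG microglia held most of the *Ccl4* RNA of all microglia, and most of that of *Ccl3* in 7 of 10 libraries. They contributed a median of 5.59% of the UMIs of all genes per library (4.31% to 10.8%), but 78.7% of the *Ccl4* UMIs (61.2% to 92.5%), 75.4% of *Lgals3*, 72.5% of *Gadd45b* and 61.8% of *Ccl3* (35.7% to 83.0%). For *Il1b* the median was 51.7%, for *Ccl2* 41.9% (6.93% to 69.3%), for *Egr1* 35.2%, for *Atf3* 31.9% (12.04% to 54.5%), for *Tnf* 30.4% and for *Cd83* 25.5%. *Apoe* (10.4%), *Fos* (10.0%) and *Jun* (6.92%) were closer to the share of all UMIs.

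**Figure D2:**
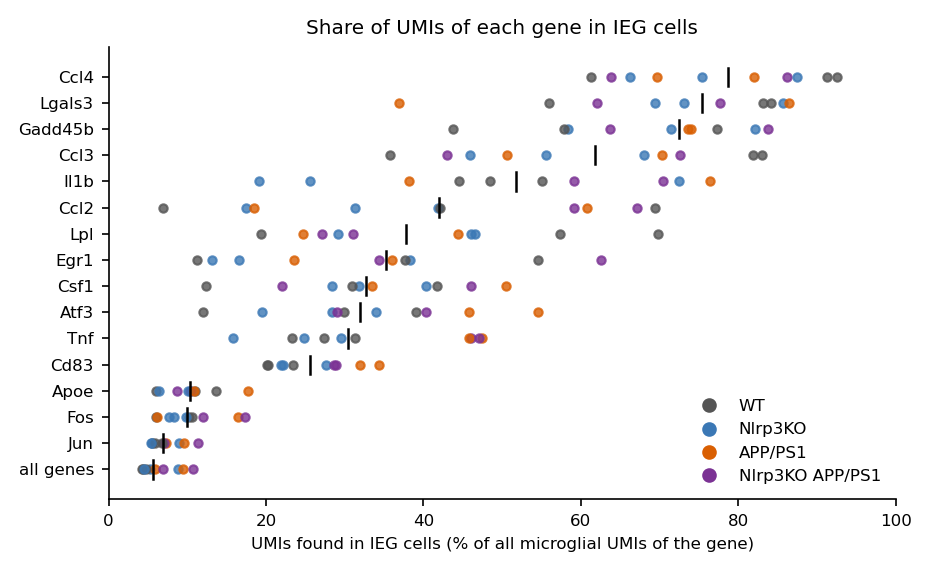
Percent of the microglial UMIs of a gene that came from IEG microglia, with 1 point per library and the median as a line. *Ccl4* and *Ccl3* lie far to the right of the share of all UMIs (median 5.59%), and *Jun* lies near it.

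The RNAs of *Ccl4*, *Ccl3* and *Atf3* came from few cells, that of *Cd83* from most. The 10% of IEG microglia with the most UMIs of the gene (209 cells) held 91.2% of the *Ccl4* UMIs in IEG, 88.0% of *Ccl3*, 78.3% of *Atf3* and 46.9% of *Cd83*, and the highest cell had 342 *Ccl4* UMIs. A *Cd83* UMI was found in 71.4% of IEG microglia. A *Ccl4* UMI was found in 32.9% of IEG microglia, and in 21.2% after every cell was thinned to 1500 UMIs. The share was 2.82% (1.005% thinned) in HM, 18.5% (7.99%) in DAM and 0.375% before thinning in B cells, which served as a background and had a median of 4671 UMIs per cell. T cells had 23.8% (8.64%). *Ccl3* was detected in 35.2% of IEG microglia (20.2% thinned), 4.40% of HM (1.82%) and 30.7% of DAM (15.8%), so that DAM came near IEG. *Atf3* was detected in 24.9% of IEG microglia (12.1% thinned), 6.36% of HM (2.30%) and 0.750% of B cells. *Fos* was detected in 10.3% of IEG microglia (3.82% thinned), 5.64% of HM (2.26%) and 12.6% of B cells (3.56%). Its share in IEG was near that in B cells, where it was found more often than in HM, so that B cells are no background for *Fos*.

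Within the IEG state, the 444 cells with a *Ccl4* UMI after thinning were set beside the 1650 without one. *Ccl3* was detected in 57.7% against 10.1%, *Atf3* in 36.3% against 5.58%, *Egr1* in 23.2% against 5.15%, *Ccl2* in 20.0% against 2.42%, *Tnf* in 10.6% against 2.30% and *Il1b* in 9.23% against 0.970%, with the same direction in 9 or 10 of 10 libraries each. *Cd83* followed the same order (61.5% against 33.0%, 10 of 10 libraries). *Fos* hardly differed (4.73% against 3.58%, higher in 5 of 10 libraries). The DAM genes *Apoe* (35.8% against 40.7%, higher in 3 libraries) and *Cst7* (10.8% against 15.1%, higher in 2) and the homeostatic gene *P2ry12* (81.1% against 88.7%, higher in none) were detected less often in the *Ccl4* cells in most libraries, whereas the DAM gene *Lpl* had 17.8% against 13.8% and was higher in 6 libraries. All of these shares are of cells that share a library and are given without a test.

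The authors also deposited an annotation of all CD45+ cells, which gave part of the IEG microglia other names. Of the 2094 cells, 1118 (53.4%) were IEG there as well, 531 (25.4%) were HM, 355 (17.0%) DAM, 61 TM, 17 proliferating microglia (PM) and 12 IRM. The share named IEG in both annotations was 16.99% to 80.9% of the IEG microglia of a library, and the share named DAM 7.03% to 48.5%. Summed over all libraries, which gave unequal parts to these sets of cells, the cells named IEG in both had 220 CPM of *Atf3*, 155 CPM of *Egr1*, 2544 CPM of *Ccl4*, 1272 CPM of *Ccl3* and 675 CPM of *Cd83*. The cells named HM in the other annotation had 25.8 CPM of *Atf3*, 55.0 CPM of *Egr1* and 42.1 CPM of *Ccl4*, and the cells named DAM 33.0 CPM of *Atf3*, 137 CPM of *Ccl4*, 3284 CPM of *Apoe* and 464 CPM of *Cst7*. The *Ccl4* and *Atf3* signal thus lay mainly in the cells that both annotations name IEG, whereas *Fos* had 25.1 CPM in these and 56.5 CPM in the cells named HM, and results that rest on the remainder are given below with those cells alone.

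The share of IEG microglia among all microglia was compared over pairs of libraries. At 3 months it was 3.49%, 4.304%, 4.96% and 5.48% in WT, Nlrp3KO, *APP/PS1* and Nlrp3KO *APP/PS1* mice, at 6 months 4.38% and 7.82% in WT and Nlrp3KO mice, and at 9 months 3.36%, 4.24%, 8.35% and 9.74% in the 4 genotypes. With cells that both annotations name IEG, the shares in the same order were 2.82%, 2.99%, 3.76% and 3.96%, then 0.744% and 1.61%, then 2.17%, 1.82%, 2.63% and 3.08%. The difference between *APP/PS1* and non-diseased libraries of 1 age and Nlrp3 genotype was 1.47 and 1.18 percentage points at 3 months and 4.995 and 5.51 at 9 months (mean 3.29 ± 2.28, SD, n = 4 pairs; exact two-sided permutation p = 0.125, the smallest that 4 pairs allow). With cells named IEG in both annotations the mean difference was 0.906 percentage points, and it was 1.03 in the annotation of all CD45+ cells. Nlrp3KO libraries exceeded Nlrp3WT libraries of the same age and background by 0.813 and 0.520 percentage points at 3 months (non-diseased, then *APP/PS1*), 3.44 at 6 months and 0.881 and 1.39 at 9 months (mean 1.41 ± 1.18, SD, n = 5 pairs; exact two-sided permutation p = 0.0625, the smallest that 5 pairs allow). Restricted to cells named IEG in both annotations, these differences were 0.169 and 0.197 at 3 months, 0.870 at 6 months and -0.346 and 0.447 at 9 months (mean 0.267; exact permutation p = 0.25). The mean was 0.228 in the annotation of all CD45+ cells and -0.102 when cells were chosen by UMIs of at least 2 of *Atf3*, *Fos* and *Ccl4*, with 1 of 5 pairs above 0. The 9-month library exceeded the 3-month library of the same genotype by 3.39 and 4.26 percentage points in the 2 *APP/PS1* genotypes and differed by -0.134 and -0.066 in the non-diseased ones (mean 1.86 ± 2.29, SD, n = 4; exact p = 0.5). This mean turned to -0.960 with cells named IEG in both annotations and to -1.30 in the annotation of all CD45+ cells, where 4 of 4 differences were below 0 in each. By UMIs of at least 2 of *Atf3*, *Fos* and *Ccl4* the mean was 0.177 with 4 of 4 differences above 0, and that for amyloid was 0.258, also with 4 of 4 above 0.

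**Figure D3:**
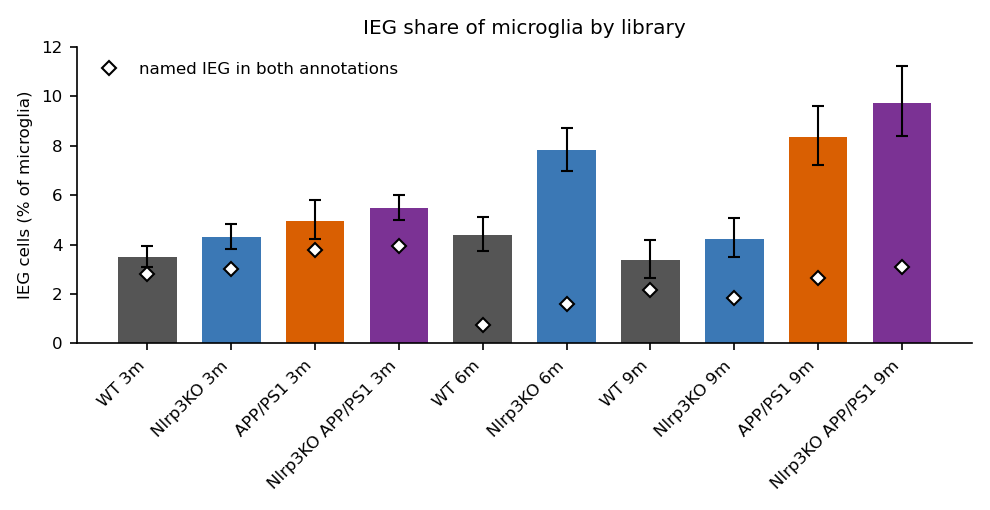
Share of IEG microglia among all microglia (percent) in each of the 10 libraries as bars with 95% exact binomial intervals, which cover counting error only, and the share of cells named IEG in both annotations as diamonds. The *APP/PS1* and Nlrp3KO *APP/PS1* libraries of 9 months, at 8.35% and 9.74%, are the highest.

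Since each pool held 1 female and 2 males, cells with *Xist* UMIs, the RNA of the inactive X chromosome, and cells with UMIs of Y-linked genes come from different mice of the same library. The IEG share was higher in *Xist* cells in 9 of 10 libraries, with a mean difference of 1.21 ± 3.87 percentage points (SD, n = 10 libraries; permutation p = 0.426). In Nlrp3KO *APP/PS1* mice at 9 months 88 of 520 *Xist* cells (16.9%, 95% exact binomial interval 13.8% to 20.4%) and 51 of 751 Y cells (6.79%, 5.10% to 8.83%) were IEG. In *APP/PS1* mice at 9 months the order was opposite, with 41 of 811 *Xist* cells (5.06%, 3.65% to 6.80%) and 96 of 880 Y cells (10.9%, 8.93% to 13.2%). The mean difference was 1.99 percentage points without that library, the sole library of opposite order, so that its omission fixes the direction and no test is read from it, and 0.214 without the Nlrp3KO *APP/PS1* library of 9 months. Part of both contrasts lay in cells that the other annotation names DAM, which were 53 of the 88 *Xist* IEG cells (60.2%) and 22 of the 51 Y IEG cells (43.1%) in Nlrp3KO *APP/PS1* mice, and 11 of 41 (26.8%) and 46 of 96 (47.9%) in *APP/PS1* mice. With cells named IEG in both annotations the mean difference was 0.606 percentage points (higher in 8 of 10 libraries; permutation p = 0.104). The *Xist* cells of a library are 1 mouse, so that sex and individual mouse cannot be told apart.

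**Figure D4:**
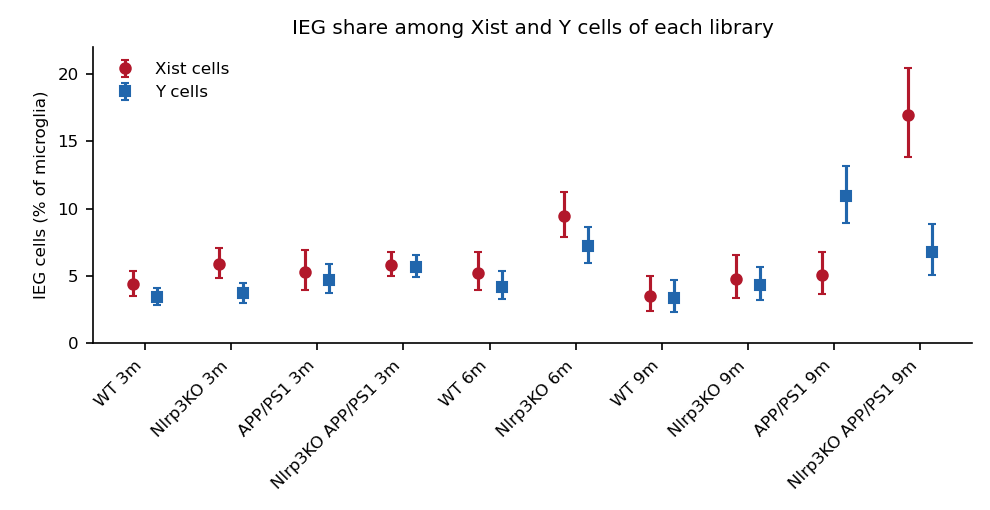
IEG share (percent of microglia) in cells with *Xist* UMIs and in cells with Y-linked UMIs of the same library, with 95% exact binomial intervals. The *APP/PS1* and Nlrp3KO *APP/PS1* libraries of 9 months differ most, in opposite directions.

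Genes of IEG microglia that changed with amyloid were sought with edgeR's quasi-likelihood test on UMIs summed per library, blocked by pair, with p-values adjusted over all genes tested (Benjamini-Hochberg). Genes were called when the adjusted p was below 0.05 and the log2 fold change was beyond 1 in either direction. Of 8403 genes, 2 (0.0238%) were called, both higher in *APP/PS1* than in non-diseased mice, 347 had an unadjusted p under 0.05, and DESeq2 called 1. Both are interferon-induced genes. *Ifi27l2a*, a mitochondrial interferon-induced protein gene, had 35.1, 20.2, 100 and 39.1 CPM in the non-diseased libraries (WT and Nlrp3KO at 3 months, then at 9 months) and 67.0, 66.4, 196 and 202 CPM in their *APP/PS1* partners. It rose by 1.46 ± 0.18 on the log2 scale (SE; edgeR adjusted p = 0.000446) and in 4 of 4 pairs. HM had 23.6, 21.9, 37.4 and 29.7 CPM of *Ifi27l2a* in the non-diseased and 33.9, 39.1, 90.7 and 64.97 CPM in the *APP/PS1* libraries, so that it was higher there in the same 4 pairs. *Ifitm3*, a membrane protein that restricts viral entry, had 22.4, 18.1, 83.8 and 42.5 CPM and 37.5, 49.8, 126 and 99.4 CPM in the same order (1.01 ± 0.17, SE; edgeR adjusted p = 0.022). In HM *Ifitm3* had 11.1, 8.73, 15.4 and 12.3 CPM and 13.8, 18.5, 29.4 and 24.4 CPM, likewise higher in each pair. Its call was lost with DESeq2 (adjusted p = 0.612), without cells of a doublet score over 0.5 (edgeR adjusted p = 0.786) and with cells named IEG in both annotations (edgeR adjusted p = 0.199). It was also lost without the Nlrp3KO pair of 3 months (edgeR adjusted p = 0.278) or of 9 months (0.747), while its fold change lay between 0.76 and 1.19 in all alternatives, whereas *Ifi27l2a* passed in every alternative.

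The genes that mark the state did not pass this test. *Atf3* differed by 0.05 (edgeR adjusted p = 0.995), *Fos* by 0.08 (edgeR adjusted p = 1) and *Ccl4* by 0.47 ± 0.16 (SE; edgeR adjusted p = 0.995, higher in 3 of 4 pairs) on the log2 scale between *APP/PS1* and non-diseased IEG microglia. Of 10 alternatives, the direction of *Fos* reversed in 3 (down to -0.884) and that of *Atf3* in 1 (-0.0725). *Ccl4* did pass with cells named IEG in both annotations (0.76, edgeR adjusted p = 0.00121), without the Nlrp3WT pair of 9 months (0.80, 6.49e-06) and without a filter on low counts (0.00363). Cells named IEG in both annotations had 2544 CPM of *Ccl4*, against 42.1 CPM in those named HM and 137 CPM in those named DAM. That restriction thus selects on *Ccl4*, and nothing is read from its pass there. The fit without that pair has 2 residual degrees of freedom, so the size of its p is not read as a certainty. None of the chemokine and cytokine genes passed. Their fold changes lay above 0 for 7 of 9 chemokine genes (median 0.39) and 8 of 8 cytokine genes (median 0.32), where the median of all genes tested was 0.00. All 13 heat shock genes tested had a fold change below 0 (median -0.09), all 18 homeostatic genes had one above 0 (median 0.09), and none passed. Of 6 interferon genes tested 6 were above 0 and 1 passed.

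Loss of *Nlrp3* was then compared over 5 pairs. Of 8393 genes, 4 (0.0477%) were called in IEG microglia, 417 had an unadjusted p under 0.05 and DESeq2 called 3. Of the 4 called by edgeR, 1 was higher (0.0119%) and 3 were lower (0.0357%) in Nlrp3KO libraries. They were *Nlrp3* itself, *Pttg1*, *Hist3h2a* and *Gm8797*, all with the same direction in HM. The comparison is of genotypes, so that loss of *Nlrp3* and any other difference inherited with the knockout allele cannot be told apart. *Pttg1*, which encodes securin, a guardian of chromosome separation, had 30.2, 44.6, 52.1, 34.8 and 32.5 CPM in the Nlrp3WT libraries and 6.05, 6.23, 2.50, 5.10 and 1.99 CPM in their Nlrp3KO partners and fell by 3.10 on the log2 scale (SE 0.26; edgeR adjusted p = 3.71e-07). *Hist3h2a*, a histone H2A gene, fell by 1.15 (SE 0.15; edgeR adjusted p = 0.000562). *Gm8797*, a copy of the ubiquitin gene *Ubb* with which it can share reads, rose by 2.51 (SE 0.31; edgeR adjusted p = 0.000294, DESeq2 adjusted p = 0.197), from 2.48 to 49.1 CPM in Nlrp3WT to 78.6 to 142 CPM in Nlrp3KO libraries. Among the Nlrp3WT libraries it had 49.1 (WT) and 39.2 CPM (*APP/PS1*) at 9 months and 2.48 to 8.93 CPM at the younger ages. By the adjusted p alone 5 genes (0.0596%) passed, the fifth being *Grap* (0.88), an adaptor of receptor signalling. No gene of the immediate early, chemokine or cytokine lists passed. *Atf3* differed by -0.59 ± 0.12 (SE; edgeR adjusted p = 0.137, lower in 4 of 5 pairs), *Ccl4* by -0.68 (edgeR adjusted p = 0.971) and *Fos* by -0.68 (edgeR adjusted p = 0.985). Without a filter on low counts these 3 passed (edgeR adjusted p = 0.000167, 7.68e-11 and 0.0193), and *Atf3* also did without the pair of 6 months (-0.72, 0.0258). *Ccl4* was lower in 4 of 5 pairs and *Fos* in 2 of 5. The size of these p-values is therefore not read as a certainty that 5 pairs could give. Fold changes lay below 0 for 12 of 13 heat shock genes (median -0.21), 6 of 6 interferon genes (median -0.26), 21 of 25 DAM genes (median -0.12) and 11 of 14 NF-kB genes (median -0.14), where the median of all genes was 0.00, and none of these genes passed.

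Whether the Nlrp3 effect differed between IEG and HM was tested as an interaction with the library as a block. The cells were clustered on genes such as *Atf3* and *Ccl4*. The level of such a gene within IEG thus depends also on which cells were admitted to the state, which limits this and the other interactions. Of 10478 genes, 0 (0.0%) were called with edgeR, 446 had an unadjusted p under 0.05 and DESeq2 called 0. By the adjusted p alone edgeR gave 3 (0.0286%), each with a change with Nlrp3 loss that was lower in IEG than in HM in 4 of 5 pairs. *Apoe* (-0.69 ± 0.10, SE; edgeR adjusted p = 1.83e-05) had 2051 ± 750 CPM in Nlrp3WT and 1507 ± 670 CPM in Nlrp3KO IEG microglia (SD, n = 5) and 336 ± 70.3 and 401 ± 90.0 CPM in HM. *Atf3* (-0.72 ± 0.14; edgeR adjusted p = 0.00458) had 159 ± 68.2 and 104 ± 41.8 CPM in IEG and 15.7 ± 3.26 and 16.8 ± 2.04 CPM in HM. *Cd83* (-0.37 ± 0.07; edgeR adjusted p = 0.00458) had 538 ± 89.1 and 422 ± 65.9 CPM in IEG and 82.4 ± 11.9 and 81.2 ± 7.75 CPM in HM. DESeq2 gave an adjusted p of 1 for each. *Apoe* no longer passed without cells of a doublet score over 0.5 (edgeR adjusted p = 0.0851), nor *Atf3* without the *APP/PS1* pair of 3 months (-0.55, edgeR adjusted p = 0.246). *Cd83* no longer passed without either pair of 3 months (edgeR adjusted p = 0.0787 and 0.349) without the pair block (0.0652) or with cells named IEG in both annotations (0.0671), with which *Apoe* and *Atf3* did.

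The same interaction for amyloid called 2 of 10497 genes (0.0191%), both lower in IEG, and DESeq2 called 1. *Gm26870* (-2.73 ± 0.40, SE; edgeR adjusted p = 1.19e-06) is a gene of at most 20.8 CPM, and *Hist1h2ac*, a histone H2A gene (-1.16 ± 0.23; edgeR adjusted p = 0.00337), had a DESeq2 adjusted p of 1. With cells named IEG in both annotations neither passed, with differences for *Hist1h2ac* of -0.287 and an edgeR adjusted p for *Gm26870* of 0.185, and the 2 genes called, *Il1b* and *Rcan1*, were both higher in IEG relative to HM. *Hist1h2ac* did not pass without the Nlrp3KO pair of 3 months (edgeR adjusted p = 0.196) or of 9 months (-0.735, 0.854) either. By the adjusted p alone, 6 genes (0.0572%) passed, 1 as higher (0.00953%) and 5 as lower (0.0476%), among them *Rcan1* (0.94), a calcineurin inhibitor gene induced by calcium signals, and *Lpl* (-0.70). Neither passed with DESeq2 (adjusted p of 1) or without the Nlrp3KO pair of 3 months (edgeR adjusted p = 0.638 and 0.592). *Rcan1* did not pass without the Nlrp3KO pair of 9 months (edgeR adjusted p = 0.336), nor *Lpl* without the Nlrp3WT pair of 9 months (-0.26, 1), without cells of a doublet score over 0.5 (0.508) or without the pair block (0.151).

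Between 3 and 9 months, 108 of 8403 genes (1.29%) were called in IEG microglia, 55 higher (0.655%) and 53 lower (0.631%) at 9 months, 1498 had an unadjusted p under 0.05 and DESeq2 called 57. The 10 with the largest fold changes were *Eid2* (-3.10), *Hnrnpa0* (-2.90), *Cebpb* (-2.88), *Khdrbs3* (-2.86), *Ppp2cb* (-2.64), *Mbd2* (-2.57), *Wtip* (-2.41), *Gm47283* (-2.29), *B930036N10Rik* (2.19) and *Amd2* (2.16). *Cebpb*, a transcription factor of inflammatory gene expression, had 238 to 295 CPM at 3 months, 272 and 302 CPM at 6 months and 10.2 to 64.6 CPM at 9 months in IEG, with no overlap between 3 and 9 months. HM had 180 to 195 CPM at 3 months, 204 and 207 CPM at 6 months and 7.02 to 46.6 CPM at 9 months. *Hnrnpa0*, an RNA-binding protein gene, showed the same pattern, with 276 to 338 CPM at 3 months and 30.7 to 45.9 CPM at 9 months in IEG and 295 to 329 and 42.1 to 58.7 CPM in HM. All 108 genes were also tested for a difference between IEG and HM in this change. By the edgeR adjusted p 4 of them differed, namely *Odf2l*, *Pdgfa*, *Ifitm3* and *Ifi27l2a*, where 24 of all 10497 genes did (0.229%). The 108 genes were chosen by their change in the same IEG sums, so no conclusion is drawn from this count. These are contrasts between batches as well as ages.

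The listed genes moved in both directions between these ages. Of 6 interferon genes tested 4 passed the adjusted p, as did 5 of 25 DAM genes, all higher at 9 months, where 423 of all genes passed it (5.03%), 2.9% of the genes tested as higher and 2.13% as lower. *Cst7* (1.67 ± 0.20, SE; edgeR adjusted p = 4.38e-05) and *Ifitm3* (1.53 ± 0.17; edgeR adjusted p = 1.91e-05) rose in 4 of 4 pairs. Of 9 chemokine genes 2 passed as higher (*Ccl5* and *Ccl12*) and 2 as lower (*Ccl2* and *Ccl9*). Of 10 alternatives, *Ccl12* lost its pass in 2, *Ccl9* in 4 and *Ccl2* in 5. *Ccl5* rose by 1.93 ± 0.30 (SE; edgeR adjusted p = 0.000547), from 4.46 to 12.04 CPM at 3 months to 6.80 to 42.7 CPM at 9 months. *Ccl2* fell by 0.94 (SE 0.21; edgeR adjusted p = 0.0125), and *Ccl4* differed by -0.48 (edgeR adjusted p = 0.256), but passed without the WT pair (-0.89, 4.44e-05) and without a filter on low counts (0.000124). With cells named IEG in both annotations the direction of *Ccl4* reversed to 0.20. *Fos* differed by 0.92 (edgeR adjusted p = 0.242) and passed without the *APP/PS1* pair (1.96, edgeR adjusted p = 0.00244) and without that filter (0.89, 0.00214). For *Ccl4* and *Fos* the size of these p-values is likewise not read as a certainty that so few pairs could give. *Atf3* was lower at 9 months in 4 of 4 pairs (-0.59 ± 0.13, SE; edgeR adjusted p = 0.0105), *Dusp2*, a phosphatase that ends MAP kinase signals, was lower (-1.54) and *Fosb* higher (1.03). None of these 4 passed with cells named IEG in both annotations, with *Atf3* at -0.08 (edgeR adjusted p = 0.870), *Ccl2* at -0.37 (0.322), *Dusp2* at -0.59 (0.557) and *Fosb* at 0.64 (0.596). DESeq2 did not pass them either (adjusted p of 0.125 to 0.381), nor did the fit without the pair block *Ccl2* and *Fosb* (edgeR adjusted p = 0.0686 and 0.0635). Each was also lost without the *APP/PS1* pair, *Atf3* and *Fosb* without the Nlrp3KO *APP/PS1* pair, and *Ccl2*, *Dusp2* and *Fosb* without the Nlrp3KO pair (edgeR adjusted p of 0.0675 to 0.299). Of the interferon genes *Isg15* lost its pass in 4 of 10 alternatives, among them both annotations (edgeR adjusted p = 0.316), whereas *Cst7*, *Ifitm3* and *Ccl5* passed in every alternative in which they were tested.

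The interaction of age with state called 4 of 10497 genes (0.0381%), 1 higher (0.00953%) and 3 lower (0.0286%) in IEG relative to HM, and DESeq2 called 2. The limit given above for genes on which the cells were clustered holds here as well. *Egr1* had the smallest p (-1.84 ± 0.15, SE; edgeR adjusted p = 3.68e-22) and the same sign in 4 of 4 pairs. This fit has 3 residual degrees of freedom, and edgeR shares its estimate of spread over genes. The size of this p is therefore not read as a certainty that 4 pairs could give. In HM *Egr1* was 4.01, 7.91, 16.1 and 3.602 CPM at 3 months and 6.41, 34.5, 47.4 and 29.4 CPM at 9 months, whereas in IEG it was 95.4 to 145 and 109 to 142 CPM, so that HM of each genotype was higher at 9 than at 3 months while the IEG ranges of both ages overlapped. *Ccl2* (-1.45 ± 0.23; edgeR adjusted p = 4.04e-06) was 136 to 236 CPM at 3 months and 38.2 to 168 CPM at 9 months in IEG and 2.02 to 3.804 and 2.42 to 4.71 CPM in HM. With cells named IEG in both annotations *Ccl2* no longer passed (-0.877, edgeR adjusted p = 0.147). *Maff* (-3.05), a small Maf factor of at most 19.6 CPM in IEG, and *Odf2l* (1.32), a centriole gene, lost their call with DESeq2 (adjusted p = 0.111 and 1). *Odf2l* lost it whichever pair was left out, and *Maff* did so for each pair but that of WT (edgeR adjusted p of 0.0696 to 0.432). By the adjusted p alone 24 genes (0.229%) passed, 9 as higher (0.0857%) and 15 as lower (0.143%), among them *Atf3* (-0.998), *Csf1* (-0.96), *Pdgfa* (-0.91), a growth factor gene, *Ccl3* (-0.66), *Junb* (-0.33), *Ifitm3* (0.83) and *Ifi27l2a* (0.63). Of 10 AP-1 genes 3 passed as lower, and of 10 chemokine genes 2 as lower and 1, *Ccl12*, as higher, where the median of all genes was 0. With cells named IEG in both annotations *Pdgfa* (-0.68, edgeR adjusted p = 0.0128) and *Ccl12* (1.01) still passed, while *Atf3* (-0.53, edgeR adjusted p = 0.306), *Csf1* (-0.52), *Ccl3* (-0.07), *Junb* (-0.13), *Ifitm3* (0.78) and *Ifi27l2a* (0.73) did not. Of the 10 alternatives *Atf3* lost its pass in 1, *Ccl3* and *Csf1* in 3, *Ccl12* in 4, *Ifitm3* and *Ifi27l2a* in 5, *Junb* in 6 and *Pdgfa* in 0. DESeq2 passed *Atf3* and *Pdgfa* of these 8 genes. Leaving out the Nlrp3KO *APP/PS1* pair ended the pass of *Ccl3*, *Csf1*, *Junb*, *Ifitm3* and *Ifi27l2a* (edgeR adjusted p of 0.0633 to 0.918), leaving out the *APP/PS1* pair that of *Junb* (0.995), the WT pair that of *Ifitm3* (0.0855) and the Nlrp3KO pair that of *Ccl12* (0.988).

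**Figure D5:**
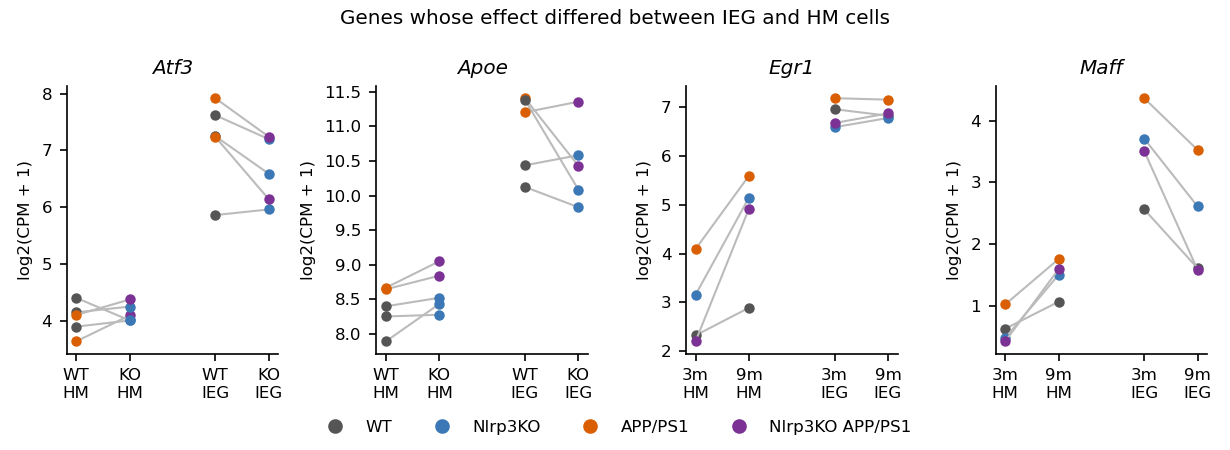
Level as log2(CPM + 1) in HM and IEG microglia of Nlrp3WT and Nlrp3KO libraries for *Atf3* and *Apoe*, and of libraries of 3 and 9 months for *Egr1* and *Maff*, with 1 point per library coloured by genotype and lines that join the libraries of a pair. *Egr1* rises in HM in 4 of 4 pairs and stays near its 3-month level in IEG, and *Atf3* is lower in IEG of the Nlrp3KO library in 4 of 5 pairs.

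The IEG share of a library was last set against the summed immediate early gene level of its other cells over the 10 libraries. With the level in HM Pearson's r was 0.267 (permutation p = 0.456) and Spearman's rho 0.309 (permutation p = 0.385), and without the 2 libraries farthest from the median r was 0.285. With the level in the other CD45+ cells r was -0.133 (permutation p = 0.687) and rho -0.0909 (permutation p = 0.809), and without 2 libraries r was -0.690 (permutation p = 0.118). The Benjamini-Hochberg adjusted p was 0.687 for both values of r (2 relations), and the batches, of 4, 2 and 4 libraries, were too small for values of their own.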

How the data were processed

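Sequencing reads were aligned to the mouse genome mm10 and counted by the authors with Cell Ranger, outlying cells were removed, and cells were annotated from clusters, per the paper's methods. The authors deposited UMI counts per gene and cell without normalization (31053 genes, 52369 cells), an annotation of all CD45+ cells and one of the microglia, with the percent of mitochondrial UMIs, the fraction of ribosomal protein UMIs and a doublet score (a fraction from 0 to 1) of each cell as deposited. Cells of 2 sample names without a description (6897 cells) were not used. The doublet caller is not given in the sources used here, and the doublet score was not used to remove cells in the main results.

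Counts were summed per library and state. IEG was described against HM on a log2 scale (CPM, 2 counts added) for genes with at least 200 UMIs. Fits used filterByExpr, TMM and edgeR 4.0.16 (quasi-likelihood F test, Benjamini-Hochberg adjustment). The SE of an edgeR fold change is its size divided by the square root of F. Since F shares its estimate of spread over genes, the SE can be smaller than the spread between pairs of that gene. Pairs of libraries (same age and background for Nlrp3, same age and Nlrp3 genotype for amyloid, same genotype for age) were the blocks, and the library was the block in the interactions. The pairs come from the design, since the labels carry no replicate numbers. Shares were tested with sign flips in an exact two-sided permutation test and correlations with 100000 permutations. Alternatives were DESeq2 1.42.0, its size factors, no filter on low counts, additive covariates without a pair block, cells without a doublet score over 0.5, and leaving out pairs or libraries. The restriction to cells named IEG in both annotations and the age interaction were added after seeing the data. The members and gene lists were chosen with earlier results of these data known. The fits were tested on simulated data. Genes named are *Atf3*, *Fos*, *Ccl4*, *Nlrp3*, list members, the 15 highest and 15 lowest ratios of IEG to HM with 1 direction in every library, and in each fit the 10 largest changes among called genes or, where none was called, those of smallest p. *Rcan1*, *Pdgfa*, *Grap*, *Xist*, *Ifi27l2a* in the age interaction, *Eif4a1* and *Lpl* between states were named after their values were seen. Intervals are 95% and cover counting error only. 1 gene of the lists was not analysed here.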

Additional observations from a re-analysis of the deposited data

Results flagged for a closer look

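The following values stood out because an effect differed between groups. The amyloid effect in IEG minus that in HM was -2.73 for *Gm26870* and -1.16 for *Hist1h2ac* on the log2 scale. The Nlrp3 effect differed likewise for *Atf3* (-0.72), *Apoe* (-0.69) and *Cd83* (-0.37). The difference between 9 and 3 months in IEG minus that in HM was -3.05 for *Maff*, -1.84 for *Egr1*, -1.45 for *Ccl2* and 1.32 for *Odf2l*. All were tested as interactions with edgeR and passed the adjusted p. Of these genes only *Egr1* passed in each of the 10 alternatives. The pass was lost in 1 of 10 for *Gm26870* and *Ccl2*, in 4 of 10 for *Hist1h2ac*, in 5 of 10 for *Maff* and in 7 of 10 for *Odf2l*. Of 11 alternatives, *Apoe* and *Atf3* lost it in 2 and *Cd83* in 5. The IEG share of microglia changed from 3 to 9 months by a mean of -0.0998 percentage points in the 2 non-diseased pairs and of 3.83 in the 2 *APP/PS1* pairs, with every non-diseased pair below 0 and every *APP/PS1* pair above 0. That difference between the backgrounds was not tested. It was not seen with cells named IEG in both annotations, since the changes were -0.656 and -1.17 in the non-diseased and -1.13 and -0.883 in the *APP/PS1* pairs, and all 4 were below 0 in the annotation of all CD45+ cells as well.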

How the results depend on the processing

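With 1 pair or library omitted, the mean differences in the IEG share were 2.55 to 3.99 percentage points for amyloid, 0.901 to 1.63 for Nlrp3, 1.06 to 2.53 for age and 0.214 to 1.99 for *Xist* against Y cells, where the value of 1.99 leaves out the only library of opposite sign. On cell numbers of the states of the microglia annotation, the amyloid difference in the IEG share passed the edgeR adjusted p (log2 0.82, adjusted p = 0.00477). With 4 pairs the exact test cannot pass. DAM (1.44, edgeR adjusted p = 0.000175) and IRM (0.89, 0.00367) passed as well. The IEG share did not pass for Nlrp3 (0.37, edgeR adjusted p = 0.102) or age (0.39, 0.0936). The Nlrp3 difference turned to -0.102 when cells were chosen by *Atf3*, *Fos* and *Ccl4* UMIs, and the age difference to -1.30 in the annotation of all CD45+ cells and -0.960 with both annotations. With both annotations 105 genes were more than 2-fold higher in IEG than HM in every library, against 60, and 60 to 78 without 1 library. With AP-1 genes alone the correlation was 0.0306 for the other CD45+ cells and 0.290 for HM (0.515 without 2 libraries), and with the full lists without 2 libraries it was 0.285 for HM and -0.690 for the other CD45+ cells.

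Called genes numbered, for amyloid in IEG (2), 1 with DESeq2, 6 without a filter, 1 without doublets and 1 to 7 without 1 pair (7 without WT and *APP/PS1* at 3 months). For Nlrp3 (4), they were 10 without a filter, 4 to 5 without 1 pair and 1 with both annotations, where *Nlrp3*, *Pttg1* and *Hist3h2a* were not among the 5254 genes tested. For age (108), they were 57 with DESeq2, 170 without a filter, 423 by the adjusted p alone and 80 to 123 without 1 pair. For the amyloid interaction (2), they were 1, 4 without doublets, 6 by the adjusted p alone and 1 to 4. For the Nlrp3 interaction (0), they were 1 without a filter, 3 by the adjusted p alone and 0 to 2. For the age interaction (4), they were 2 with DESeq2, 24 by the adjusted p alone and 2 to 13 (13 without the Nlrp3KO pair). Fits without the pair block (additive covariates) stayed within 1.5 times of each count.

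Directions reversed for *Atf3* under amyloid without the WT pair of 3 months (-0.0725, range over omitted pairs up to 0.125), for *Fos* under amyloid with DESeq2 (-0.13), without doublets (-0.0272) and without that pair (-0.884, up to 0.571), and with both annotations for *Ccl4* under age (0.20) and, in the age interaction, *Apoe* (-0.0765), *Eif4a1* (0.0693) and *C5ar1* (0.00836). Of the other values of single genes, 596 stayed on their side of an adjusted p of 0.05, with or without a pass, 200 lost a pass, 11 gained one and 24 moved without a test. The gains are all of *Atf3*, *Fos* or *Ccl4*, the only genes followed here that had no pass in the main fit. Gains of other genes were not counted. Each genotype and age is 1 library, which limits every comparison. The 79 IEG microglia of WT mice at 9 months limit the depth of that library.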
